A study of Mus musculus with 24 samples.

Results

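The transcripts examined here encode the subunits of the transcription factor NF-κB and the proteins that hold it in check or release it. The set has 10 genes, chosen by name and not by their measured values, although earlier results of these data were known. They are the subunit genes *Rela*, *Relb*, *Rel*, *Nfkb1* and *Nfkb2*, the inhibitor genes *Nfkbia* and *Nfkbib*, the kinase complex genes *Ikbkb* and *Ikbkg*, and *Tnfaip3*. Every probe whose transcript accession belongs to one of these genes was taken, which gave 15 of the 55681 probes on the array. In all, 21368 mouse genes could be named on it. RNA levels were measured on 24 one-colour arrays from 6 male mice. Mice homozygous for the *Rap1* I312R knock-in allele (*Rap1* KI/KI, MUT in the plots) were compared with *Rap1* wild-type (WT) mice. Each of 3 WT mice (WT1, WT2, WT3) and 3 *Rap1* KI/KI mice (KI1, KI2, KI3) gave 4 tissues: liver, brain, heart and skeletal muscle. In each genotype 1 mouse (WT1, KI1) was 5 months of age, and the rest were 2 months of age. The knock-in line was made by CRISPR/Cas9 editing and bred back to C57BL6 mice, of substrain C57BL/6N by the study's methods. The allele is in the germline, so every cell type of a tissue carries it.

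NF-κB is a family of dimers. RELA, RELB and REL carry the domain that activates transcription, whereas NFKB1 and NFKB2 are made as precursors and processed to p50 and p52. In resting cells IκB proteins such as IκBα (*Nfkbia*) and IκBβ (*Nfkbib*) keep the dimers in the cytoplasm, and signals from TNF, interleukin-1 or Toll-like receptors activate the IKK complex, which marks IκB for destruction. IKKβ (*Ikbkb*) is the catalytic subunit used in this canonical route and NEMO (*Ikbkg*) is its regulatory subunit, while RELB with NFKB2 serves a slower, non-canonical route. A20 (*Tnfaip3*) edits ubiquitin chains on the signalling complex and switches it off. *Nfkbia*, *Nfkb2* and *Tnfaip3* are among the members that are textbook targets of NF-κB itself. RAP1, a telomere protein encoded by *Terf2ip*, has also been described in the cytoplasm as a partner of the IKK kinases, which makes the genotype comparison of interest for this pathway.

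The feedback genes *Nfkbia*, *Nfkb2* and *Tnfaip3* carry the κB consensus, the sequence pattern NF-κB binds, close to a RefSeq transcription start. Stretches of 30 bases are given from RefSeq promoter windows (GRCm38.p6) because they mark feedback members of the set, with the consensus match, read on either strand, in capitals.
Nfkbia, chr12:55492657-55492686, minus strand: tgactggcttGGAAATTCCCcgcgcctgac
Nfkb2, chr19:46304689-46304718, plus strand: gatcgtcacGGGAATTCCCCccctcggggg
Tnfaip3, chr10:19015403-19015432, minus strand: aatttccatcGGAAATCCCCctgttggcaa
The *Nfkb2* stretch holds 2 overlapping matches. Relative to the start, the matches shown for *Nfkbia*, *Nfkb2* and *Tnfaip3* began at -29, -39 and -12. *Rel* also had a match, and 4 of the 7 member genes with a window had at least 1, against 9.55% of all 27018 genes with a window of the same 300 bases. *Rela*, *Nfkbib* and *Ikbkg* had none in these windows, and *Relb*, *Nfkb1* and *Ikbkb* were not searched. A match is a run of letters and was not tested for binding.

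The 75th percentile intensity of the arrays ran from 471 to 1389, with the lowest values on the muscle arrays, and 56.5% to 72.8% of the probes were well above background. Tissue identity matched the labels. Levels of marker genes were summed on the linear scale and the log2 of the sum is given, so the brightest gene weighs most. For 3 hepatocyte genes it was 9.92 or more in liver and at most 6.95 elsewhere. For 4 neuron genes it was at least 7.44 in brain and at most 5.65 elsewhere. For 3 cardiomyocyte genes it was at least 10.04 in heart and at most 2.52 elsewhere. For 3 muscle fibre genes it was at least 10.96 in muscle and at most 6.47 elsewhere. The muscle array of KI3 had the highest neuron gene sum of the 6 muscle arrays (5.22 against 3.52 to 4.16). By mean log2 level, the 4 neuron genes were higher in the KI1 and KI3 hearts (-0.94 and -0.44) and muscles (-1.47 and 2.18). The other hearts and muscles had -4.49 to -3.56, with 1 or 2 genes well above background in place of 3 or 4. The heart arrays of KI1 and KI3 had adipocyte gene sums of 5.30 and 6.32, against -2.60 to 2.11 in the other hearts. RNA from brain and liver was prepared with another kit than RNA from heart and muscle, so kit and these tissue pairs cannot be told apart.

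The brain had the lowest levels of most NF-κB genes. Levels are given as log2 of the signal relative to the 75th percentile of the same array, so that a difference of 1 is a 2-fold change. Of the 15 probes, 14 were well above background on all 24 arrays, and the gene is represented by its brightest probe. *Rel* was the exception and was not tested, which left 9 genes. In the WT mice, 6 of these 9 had all 3 brain arrays below the other 9 arrays (*Rela*, *Nfkb1*, *Nfkb2*, *Nfkbia*, *Nfkbib* and *Ikbkg*), where 21% of all tested probes did. *Ikbkb* and *Ikbkg*, 2 of the 9 genes, had all 3 liver arrays above the other 9 arrays. This count is near the share of all tested probes that did, 19.4%. In the *Rap1* KI/KI mice, 5 genes had the brain lowest in this sense (background 19.6%), all of them among the 6 above, and 4 had the liver highest (background 23.1%). The plot of the levels by tissue shows every mouse. In bulk tissue, fewer cells of a type and less RNA per cell cannot be told apart.

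**Figure D1:**
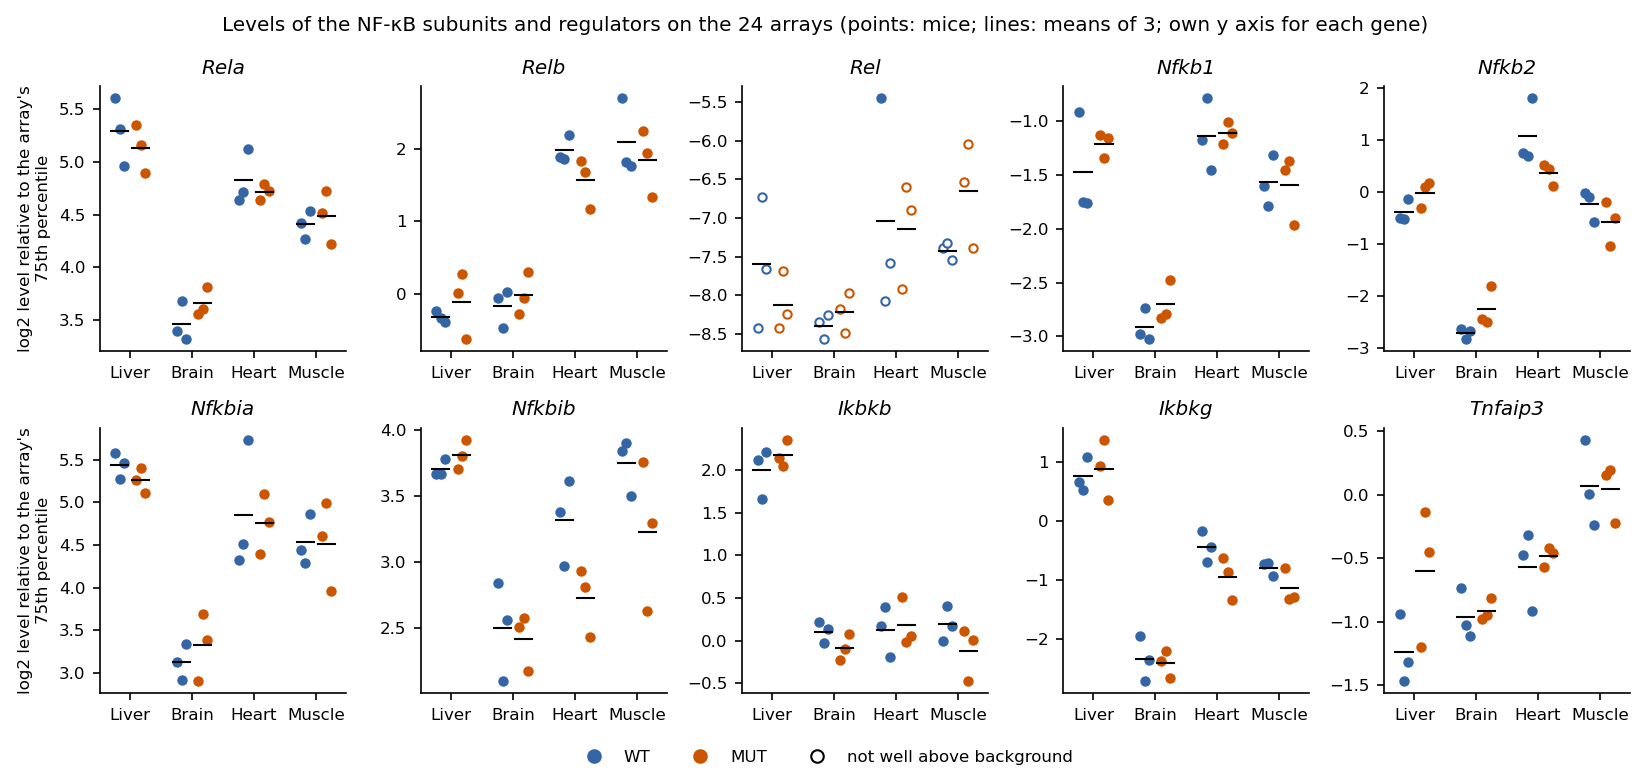
Log2 levels of the 10 genes, with the array 75th percentile at 0 (y axis, own scale for each gene), in the 4 tissues (x axis), with 1 point per mouse, WT in blue and *Rap1* KI/KI (MUT) in orange, lines at the means of 3 mice and open points where the probe was not well above background. The brain points of *Nfkb2* lie between -2.84 and -1.81 and the heart points between 0.12 and 1.80, and the liver points of *Ikbkb* lie above those of every other tissue.

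The limma fit of the 12 WT arrays tested 40780 probes in each of the 6 pairs of tissues, with Benjamini-Hochberg adjustment and a threshold of 0.05. Between liver and brain, 7 of the 9 genes were higher in liver (background 39% of probes) and 0 were higher in brain (background 28.6%). The median difference of the 9 was 1.83, against 0.33 over all tested probes. Between brain and heart, 7 were higher in heart (32.4%) and 0 in brain (23.6%), with a median of -1.73 for brain minus heart against -0.21 over all probes. Between brain and muscle, 8 were higher in muscle (34.6%) and 0 in brain (24.4%), with medians of -1.34 and -0.28. The brain was thus not called higher than another tissue for any of the 9 brightest probes. Liver and heart divided the genes: 2 were higher in liver (26.4%) and 3 in heart (24.6%). Liver and muscle did so too, with 4 higher in liver (27.9%) and 2 in muscle (27.5%). Heart and muscle differed for 1 gene, which was higher in heart (14.9%), and 0 genes were higher in muscle (14.5%).

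*Rela* (NM_009045, chr19:5637442-5648134) encodes p65, the main activating subunit of the canonical route. Its levels in WT mice were 5.61, 5.31 and 4.96 in liver, 4.64, 4.72 and 5.12 in heart, 4.42, 4.27 and 4.54 in muscle, and 3.40, 3.68 and 3.32 in brain, for WT1, WT2 and WT3. All brain values lay below all others, and the liver and heart values overlapped. *Rela* was 3.55-fold higher in liver than in brain (difference 1.83, SE 0.23, adjusted p = 2.99e-05) and 2.57-fold higher in heart than in brain (adjusted p = 0.000407). The step from liver to heart was not called (0.47, adjusted p = 0.118), nor was that from heart to muscle (0.42, adjusted p = 0.213). Liver was called above muscle (0.89, adjusted p = 0.00712), but not without WT1 (0.74, adjusted p = 0.0721) or WT2 (0.81, adjusted p = 0.101), nor with the slide as a block (1.43, SE 0.52, adjusted p = 0.0618). The lead of muscle over brain (-0.94 as brain minus muscle, adjusted p = 0.00446) was lost without WT3 (adjusted p = 0.0502), with the slide as a block (adjusted p = 0.387) and under quantile normalization (adjusted p = 0.232).

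*Nfkb1* (NM_008689, chr3:135584655-135691969) encodes the p105 precursor of p50, the usual partner of RELA. Its WT levels were -0.92, -1.75 and -1.76 in liver, -1.18, -0.79 and -1.46 in heart, -1.61, -1.79 and -1.32 in muscle and -2.97, -2.74 and -3.03 in brain. Liver, heart and muscle overlapped, and the brain lay below all of them. Heart exceeded brain by 3.41-fold (SE of the log2 difference 0.28, adjusted p = 0.00023), liver by 2.70-fold (adjusted p = 0.000789) and muscle by 2.54-fold (adjusted p = 0.00153). None of the other 3 pairs was called (adjusted p = 0.291 to 0.798). A dimmer *Nfkb1* probe to the same transcript gave another order. It did not separate muscle from brain (brain minus muscle 0.03, adjusted p = 0.933) and was 2.27-fold higher in heart than in muscle (adjusted p = 0.0115), so the place of muscle in the order depended on the probe.

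*Nfkb2* (NM_019408, chr19:46300994-46312400), the p100 precursor of p52 in the non-canonical route, had the widest range of the subunits. Heart values in WT mice were 0.75, 0.69 and 1.80, muscle values -0.01, -0.11 and -0.58, liver values -0.51, -0.52 and -0.14, and brain values -2.63, -2.84 and -2.68. The heart lay above and the brain below every other array. Levels were 13.9-fold higher in heart than in brain (log2 difference 3.80 in size, SE 0.30, adjusted p = 1.03e-06), 5.59-fold higher in muscle than in brain (adjusted p = 2.98e-05) and 5.01-fold higher in liver than in brain (adjusted p = 3.8e-05). Muscle and liver were not separated (adjusted p = 0.678). The heart was also 2.78-fold above liver (adjusted p = 0.00174) and 2.49-fold above muscle (adjusted p = 0.00698). The heart of WT3 carried part of this: without WT3 the heart exceeded muscle by 0.78 (adjusted p = 0.0825) in place of 1.32, and without WT2 the adjusted p was 0.0502.

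*Relb* (NM_009046, chr7:19606217-19629438), the partner of NFKB2, split the tissues into a pair of striated muscles and the rest. The WT values were 1.89, 1.86 and 2.18 in heart and 2.70, 1.82 and 1.76 in muscle, but -0.24, -0.33 and -0.39 in liver and -0.06, -0.47 and 0.02 in brain. No heart or muscle value overlapped any liver or brain value. This split is also that of the RNA kits, so tissue and kit cannot be told apart for it. Muscle was 5.31-fold above liver (adjusted p = 1.64e-05) and 4.79-fold above brain (adjusted p = 2.44e-05), and heart was 4.90-fold above liver (adjusted p = 2.63e-05) and 4.43-fold above brain (adjusted p = 3.93e-05). Neither heart and muscle (adjusted p = 0.793) nor liver and brain (adjusted p = 0.644) could be ordered. A second probe (NM_001290457) gave the same split with smaller differences, from 1.97-fold for muscle over brain (adjusted p = 0.0142) to 3.60-fold for heart over liver (adjusted p = 0.000283).

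*Rel* (NM_009044, chr11:23736847-23770969) encodes c-Rel, the subunit best known from lymphocytes. Its only probe was well above background on 1 of the 24 arrays, the heart of WT1, at -5.45. On the other 23 arrays the signal lay between -8.57 and -6.05 and was not well above background, so no order of tissues or genotypes can be given for it.

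*Nfkbia* (NM_010907, chr12:55489409-55492647) encodes IκBα, the inhibitor that NF-κB itself induces. The liver values of the WT mice were 5.58, 5.28 and 5.46, those of heart 4.33, 4.51 and 5.73, those of muscle 4.44, 4.29 and 4.87 and those of brain 3.13, 2.91 and 3.34. The brain values were again the lowest, and the heart of WT3 reached above the livers. Liver exceeded brain 4.97-fold (log2 difference 2.31, SE 0.34, adjusted p = 9.93e-05), heart exceeded brain 3.32-fold (adjusted p = 0.00114) and muscle exceeded brain 2.65-fold (adjusted p = 0.00417). The muscle over brain call was lost after quantile normalization (adjusted p = 0.0535) and with the slide as a block, where the difference was close to 0 (-0.091 as brain minus muscle, adjusted p = 0.878). Liver and heart were not separated (0.58, adjusted p = 0.181), although they were without WT3 (1.01, adjusted p = 0.0264). Liver was called above muscle (0.91, adjusted p = 0.0412), a call that was lost without WT1 (adjusted p = 0.181) or WT2 (adjusted p = 0.184), under quantile normalization (adjusted p = 0.128), with z-scores (adjusted p = 0.146) and with no filter on dim probes (adjusted p = 0.0568).

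*Nfkbib* (chr7:28758251-28766644) encodes IκBβ, which is not a prominent NF-κB target. By its brightest probe (NM_001306222) the WT values were 3.67, 3.67 and 3.78 in liver, 3.85, 3.90 and 3.50 in muscle, 3.38, 2.97 and 3.61 in heart and 2.84, 2.10 and 2.56 in brain. The brain lay below the other tissues by a small margin. Muscle was 2.38-fold above brain (adjusted p = 0.00119), liver 2.30-fold (adjusted p = 0.00126) and heart 1.77-fold (adjusted p = 0.0156). These calls depended on the probe. A second probe for NM_001306222 had differences of the same direction, of which liver over brain was called (0.86, adjusted p = 0.0228) and brain against heart (-0.21, adjusted p = 0.583) and brain against muscle (-0.57, adjusted p = 0.121) were not. The probe for NM_010908 ran the other way. It was highest in brain, 2.67-fold above heart (adjusted p = 0.000278), 2.08-fold above muscle (adjusted p = 0.00199) and 1.98-fold above liver (adjusted p = 0.00262). With the mean of the 3 probes, brain minus heart became 0.13 (adjusted p = 0.633), and neither liver over brain (0.36, adjusted p = 0.152) nor muscle over brain (-0.25 as brain minus muscle, adjusted p = 0.328) was called. Liver over brain by the brightest probe was also lost under quantile normalization (0.53, adjusted p = 0.0713). The heart over brain call by the brightest probe was also lost without WT2 (adjusted p = 0.0718) or WT3 (adjusted p = 0.139) and under quantile normalization (adjusted p = 0.138), and the muscle over brain call with the slide as a block (adjusted p = 0.0773). The plot of the single probes sets these patterns side by side.

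**Figure D2:**
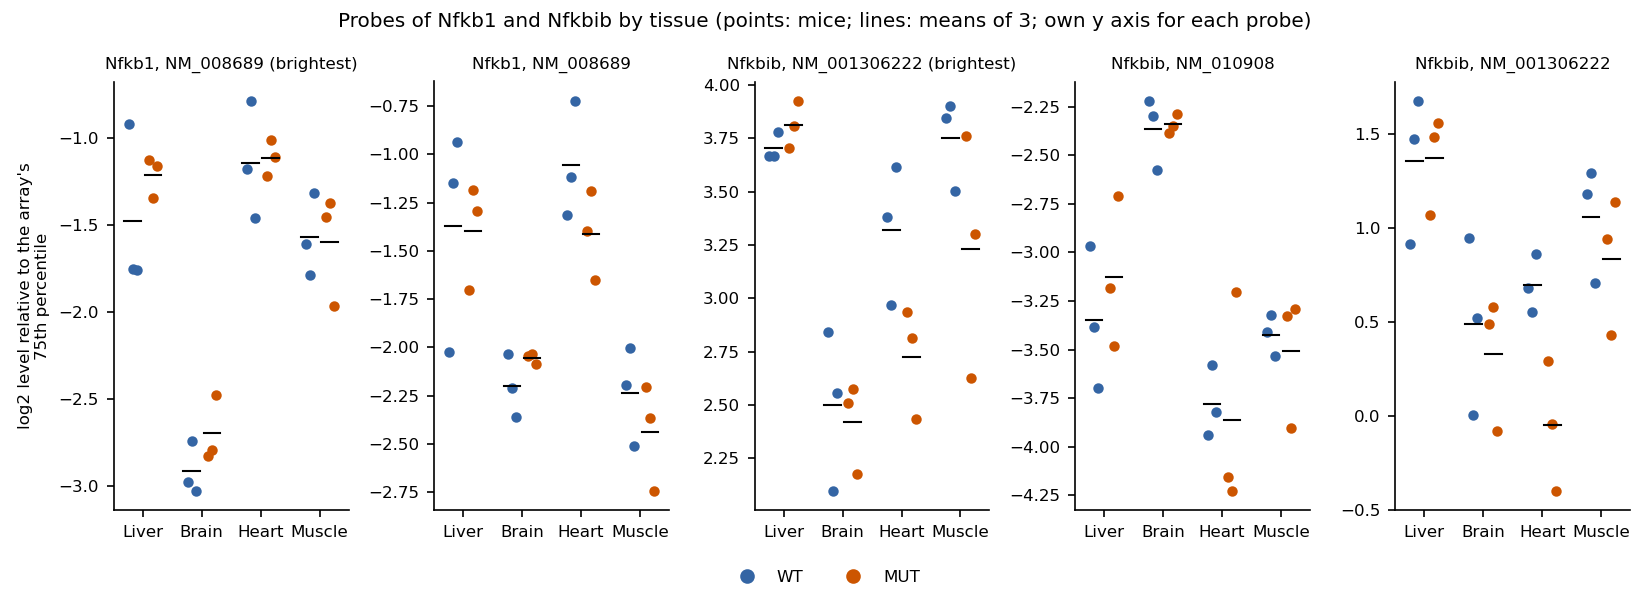
Log2 levels of the 2 *Nfkb1* and 3 *Nfkbib* probes, with the array 75th percentile at 0 (y axis, own scale for each probe), in the 4 tissues (x axis), with 1 point per mouse, WT in blue and *Rap1* KI/KI (MUT) in orange, and lines at the means of 3 mice. The NM_010908 probe of *Nfkbib* was highest in brain, whereas the brightest *Nfkbib* probe was lowest there.

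Among the 9 genes, only the IKK genes had all liver arrays above the other 9 arrays in both genotypes. *Ikbkb* (NM_010546, chr8:22659205-22706589) had WT values of 2.12, 1.66 and 2.21 in liver, 0.22, -0.031 and 0.13 in brain, 0.17, 0.40 and -0.19 in heart and -0.0091, 0.40 and 0.18 in muscle. The liver values stood 1.25 or more above every other value, and the other 3 tissues overlapped fully. Liver was 3.70-fold above brain (SE of the log2 difference 0.23, adjusted p = 2.48e-05), 3.65-fold above heart (adjusted p = 4.38e-05) and 3.49-fold above muscle (adjusted p = 5.31e-05). With the slide as a block, the difference from muscle was 1.16 (adjusted p = 0.114) in place of 1.80. Brain, heart and muscle could not be ordered (adjusted p = 0.783 to 0.95). *Ikbkb* had the same form in the *Rap1* KI/KI mice, with 2.14, 2.04 and 2.35 in liver and -0.48 to 0.52 elsewhere.

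*Ikbkg* (NM_001136067, chrX:74393233-74456792) followed a 3-step order. WT values were 0.66, 0.53 and 1.07 in liver, -0.18, -0.69 and -0.43 in heart, -0.73, -0.71 and -0.93 in muscle and -1.94, -2.71 and -2.35 in brain. Liver stood above and brain below all other arrays. Liver exceeded brain 8.49-fold (log2 difference 3.09, SE 0.25, adjusted p = 7.54e-07), muscle 2.91-fold (adjusted p = 0.000324) and heart 2.27-fold (adjusted p = 0.00219), and heart exceeded brain 3.73-fold (adjusted p = 6.21e-05) and muscle exceeded brain 2.92-fold (adjusted p = 0.000283). Heart and muscle were not separated (0.36, adjusted p = 0.334). The second probe (NM_010547) gave the same 5 calls, with liver over brain at 9.93-fold (adjusted p = 4.34e-07). With the slide as a block, the calls of liver over heart (0.60, adjusted p = 0.325) and over muscle (0.95, adjusted p = 0.214) by the brightest probe were lost, and liver over heart was also lost without WT3 (adjusted p = 0.0586).

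*Tnfaip3* (NM_009397, chr10:19000910-19015410) did not follow the brain-low pattern. Its WT values were -0.94, -1.47 and -1.31 in liver, -0.74, -1.03 and -1.11 in brain, -0.48, -0.32 and -0.91 in heart and 0.43, 0.00087 and -0.24 in muscle. Muscle lay above the other tissues, by 0.079 at the closest pair of values. Muscle exceeded liver 2.47-fold (SE of the log2 difference 0.26, adjusted p = 0.00116) and brain 2.03-fold (adjusted p = 0.005), the latter not without WT2 (adjusted p = 0.0593). The difference from heart missed the threshold (1.55-fold, adjusted p = 0.0895). Heart over liver was called at 1.59-fold (adjusted p = 0.0476) but was lost with each WT mouse left out (adjusted p = 0.0599, 0.405 and 0.0922) and with the mouse as a random block (adjusted p = 0.0508).

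The *Rap1* KI/KI mice, which share no array with the WT fit, gave a repeat of the tissue pattern. Of 54 comparisons (9 genes by 6 pairs), 34 were called in WT and 30 in *Rap1* KI/KI mice, 29 of them in both and in the same direction, and all 34 WT differences kept their sign. Shares called over all 41254 probes in the *Rap1* KI/KI mice, in either direction, were 70.8% for liver and brain, 59% for liver and heart, 61.9% for liver and muscle, 56.4% for brain and heart, 58.4% for brain and muscle and 26.8% for heart and muscle. The members called in these pairs numbered 7, 4, 4, 6, 8 and 1 of 9. *Ikbkg* again had the widest gap of the 9 between liver and brain (3.29, SE 0.30, adjusted p = 2.67e-06), and *Nfkb2* that between heart and brain (-2.62 as brain minus heart, SE 0.28, adjusted p = 2.07e-05). *Relb* was again higher in muscle than in liver (-1.95 as liver minus muscle, SE 0.32, adjusted p = 0.000317). *Nfkb2* was not called between liver and heart in these mice (-0.38, adjusted p = 0.26, against -1.47 in WT), and *Tnfaip3* neither between liver and heart (-0.12, adjusted p = 0.724) nor between liver and muscle (-0.64, adjusted p = 0.0503). The other WT calls that were not repeated were *Nfkbia* between liver and muscle (0.74, adjusted p = 0.0544) and *Nfkbib* between brain and heart (-0.31, adjusted p = 0.374). Without KI3, whose muscle array had the high neuron gene sum, 7 members were called between brain and muscle, and without KI1 4 were. The plot of tissue differences shows both genotypes.

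**Figure D3:**
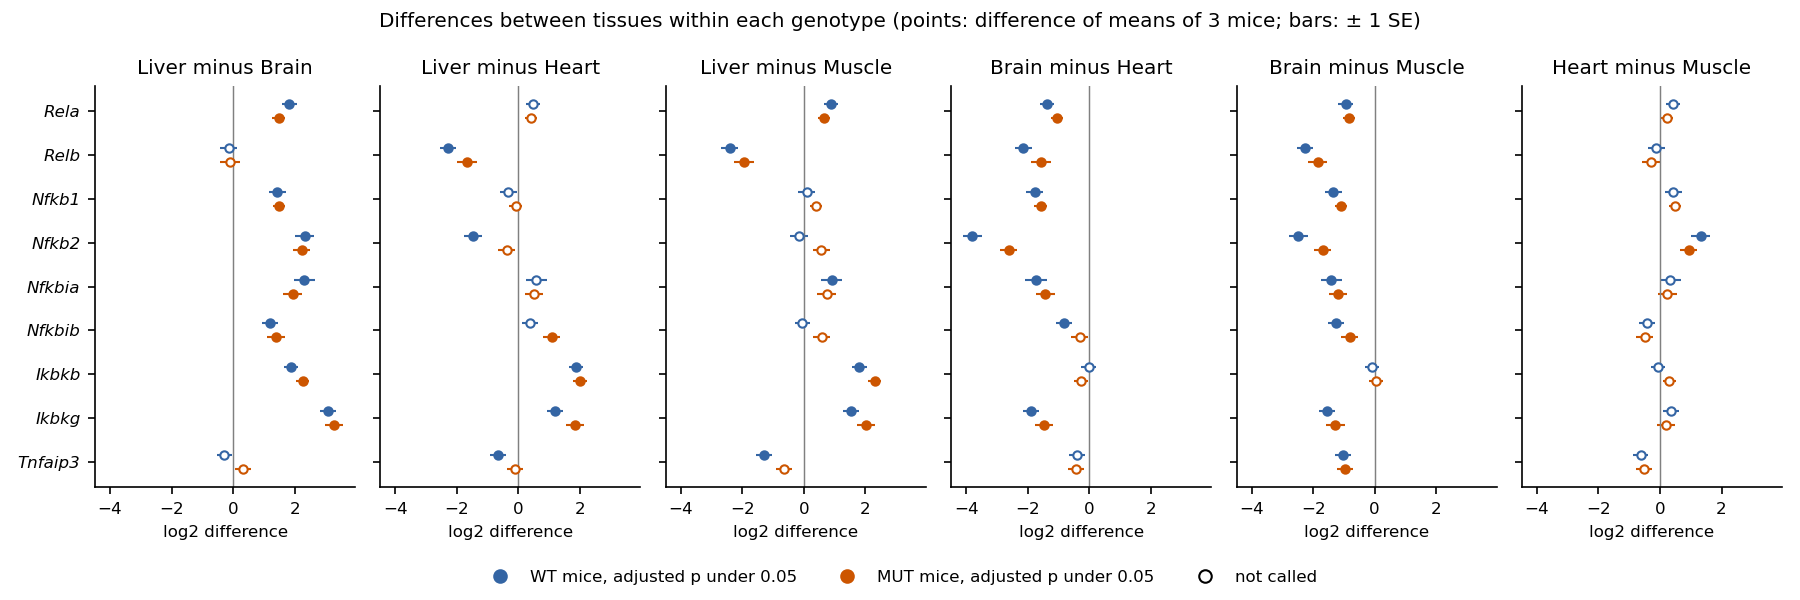
Log2 difference of mean levels (x axis, the first tissue minus the second) for the 9 tested genes (y axis) in the 6 pairs of tissues, within WT (blue) and within *Rap1* KI/KI (MUT, orange) mice, with bars of 1 SE and filled points at a limma adjusted p under 0.05. The points of both genotypes lie on the same side of 0 for all 34 differences called in WT mice.

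Slides carried 2 tissues each in part, so some differences could be read within a slide. On the slide with all livers and 1 WT brain, *Ikbkg* differed by 2.69, *Nfkbia* by 2.31 and *Nfkb2* by 2.24 (liver minus brain). On the slide with 2 WT brains and 2 WT hearts, brain minus heart was -3.48 for *Nfkb2*, -2.10 for *Relb*, -2.10 for *Ikbkg* and -1.90 for *Nfkb1*. The slide with all muscles held 1 WT heart. Liver and heart, liver and muscle, and brain and muscle shared no slide.

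Genes whose levels ran most nearly parallel to each member over the 24 arrays were found among 16023 genes, each by 1 probe. The closest to *Rela* was *Tnpo1* (Pearson r = 0.98), to *Relb* *Asb10* (0.97), to *Nfkb1* *Smc4* (0.98), to *Nfkb2* *S100a1* (0.98), to *Nfkbib* *Sars2* (0.96), to *Ikbkb* *Cyp2d40* (0.98), to *Ikbkg* *Pa2g4* (0.98) and to *Tnfaip3* *Htra4* (0.88). *Nfkbia* had *Depp1* (0.95) and then *Rela* itself (0.94). Others among the 3 closest were *Dennd6a* and *Psme2b* for *Rela*, *Nes* and *Wnk1* for *Relb*, *Septin2* and *Txnrd3* for *Nfkb1*, *Hadha* and *Exosc10* for *Nfkb2*, *Aph1a* for *Nfkbia*, *Ubl7* and *Fiz1* for *Nfkbib*, *Pigl* and *Amdhd1* for *Ikbkb*, *Pcca* for *Ikbkg*, and *1700052K11Rik* and *Rps6ka3* for *Tnfaip3*. The 24 arrays form 4 tissue groups, and r includes the differences between tissue means.

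The rest of the pathway, 70 listed genes of which 69 were on the array and 65 were tested in WT mice, was mostly lower in brain too. In WT mice 44 of the 65 were higher in liver and 9 in brain (39% and 28.6% of all tested probes), 43 were higher in heart and 3 in brain (32.4% and 23.6%), and 39 were higher in muscle and 9 in brain (34.6% and 24.4%). The smaller lists by role are described by their counts, to be read against the same shares. Among 16 adaptors, which link receptors to the IKK complex, 14 were higher in liver and 1 in brain, including *Ripk1* (5.16, SE 0.23), *Tirap* (4.45, SE 0.23), *Irak4* (3.90, SE 0.20) and *Tradd* (2.76, SE 0.20). Of 10 receptors, 6 were higher in liver and 0 in brain, led by *Ltbr* (4.60), *Tnfrsf1a* (4.19), *Tnfrsf1b* (4.22) and *Il1r1* (5.02). Among the 8 kinases, 5 were higher in liver than brain and 1 lower. *Ikbke*, an IKK-related kinase, differed by 5.58 (SE 0.37) and *Chuk*, which encodes IKKα, by 3.66 (SE 0.39), so that the genes of all 3 IKK subunits were higher in liver than in brain, heart and muscle (*Chuk* by 2.94 over heart and 3.40 over muscle). *Tab1* was lower in liver than in brain (-1.42, SE 0.24).

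Among the other IκB genes, *Bcl3*, which encodes a nuclear IκB protein that works with p50 and p52, was higher in liver than in brain by 7.13 (SE 0.25), and it was also above heart by 3.15 and above muscle by 4.83. *Nfkbid* went against the rest and was lower in liver than in brain (-1.16, SE 0.27). Of 14 tested target genes, 9 were higher in liver than in brain and 3 lower. *Birc3*, an inhibitor of cell death, differed by 4.76 (SE 0.22) and the chemokine gene *Cxcl1* by 6.95 (SE 0.49), while the cyclooxygenase gene *Ptgs2* was lower in liver (-6.26, SE 0.49). Of 6 tested ligand genes, 4 were higher in liver and 1 in brain, with *Il1a* at 5.00 and *Lta* at -1.63. The 7 ubiquitin editors had 3 genes higher in liver and 2 in brain, close to the shares over all probes, and *Cyld*, a deubiquitinase, was lower in liver (-2.95, SE 0.28) while *Otulin* was higher (3.02, SE 0.24). All named differences had a limma adjusted p of 0.00263 or less.

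The genotype comparison asked whether the knock-in allele changed the level of these transcripts. *Terf2ip*, which carries the altered codon, was expressed in both genotypes, at 0.69 to 2.07 over the 24 arrays, and its genotype differences were 0.12 in liver, -0.024 in brain, -0.41 in heart and -0.28 in muscle (adjusted p = 0.663 or more). The array probe does not show which allele is transcribed. None of the 9 tested members was called between genotypes in any tissue by limma, in fits of 35260 probes in liver, 37853 in brain, 34871 in heart and 32401 in muscle. The same fits called 0% of all probes in liver, 0% in brain, 0% in heart and 0% in muscle. At an unadjusted p under 0.05 they had 0 of the 9 members in each tissue by the brightest probe, and 2.13%, 2.62%, 7.51% and 2.47% of all probes. The member differences ran from -0.72 (*Nfkb2* in heart) to 0.64 (*Tnfaip3* in liver), with SEs of 0.18 to 0.41. The median of the 9, *Rap1* KI/KI minus WT, was 0.18 in liver, 0.16 in brain, -0.11 in heart and -0.25 in muscle, against -0.0088, -0.051, -0.022 and -0.073 over all tested probes.

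**Figure D4:**
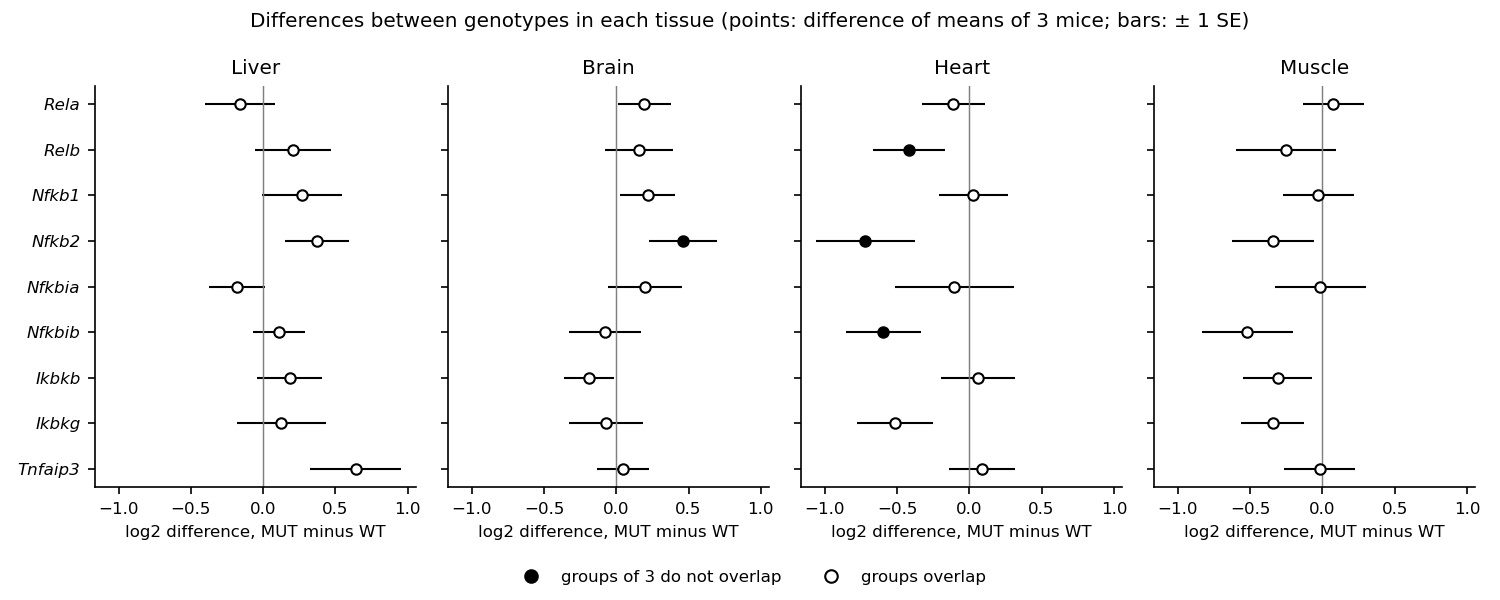
Log2 difference of mean levels, *Rap1* KI/KI (MUT) minus WT (x axis), for the 9 tested genes (y axis) in each tissue, with bars of 1 SE and filled points where the 3 mice of one genotype lie wholly above or below the 3 of the other. The filled points are *Relb*, *Nfkb2* and *Nfkbib* in heart, all below 0, and *Nfkb2* in brain, above 0.

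In heart, 3 of the 9 members had all *Rap1* KI/KI values below all WT values, where 14.7% of all tested probes did not overlap in either direction. *Nfkb2* was 0.75, 0.69 and 1.80 in WT and 0.51, 0.45 and 0.12 in *Rap1* KI/KI hearts (difference -0.72, SE 0.34, adjusted p = 0.646). This size rested in part on WT3, without which the difference was -0.36. *Nfkbib* was 3.38, 2.97 and 3.61 in WT and 2.93, 2.81 and 2.43 in *Rap1* KI/KI hearts (-0.60, SE 0.26, adjusted p = 0.646), and its second NM_001306222 probe differed by -0.75 (SE 0.25, adjusted p = 0.646), the only difference of a member probe with an unadjusted limma p under 0.05, while the NM_010908 probe differed by -0.082 and overlapped. *Relb* was 1.89, 1.86 and 2.18 in WT and 1.84, 1.68 and 1.17 in *Rap1* KI/KI hearts (-0.42, SE 0.25, adjusted p = 0.677), and its second probe overlapped (-0.39, adjusted p = 0.695). The heart of KI3 had the lowest value of the 6 for 4 of the 9 members (*Relb*, *Nfkb2*, *Nfkbib* and *Ikbkg*) and the heart of WT3 the highest for 5 (*Rela*, *Relb*, *Nfkb2*, *Nfkbia* and *Nfkbib*). The hearts of KI3 and WT3 were on the slide of the muscle arrays, and the other hearts were on another slide. The part of the slide in these extremes was not tested. The high adipocyte gene sums and mean neuron gene levels of the KI1 and KI3 hearts lie beside these differences, and their part was not tested. Without KI3 the differences were -0.60 for *Nfkb2*, -0.45 for *Nfkbib* and -0.22 for *Relb*.

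In brain, 1 of the 9 members did not overlap, against 7.73% of all tested probes. *Nfkb2* was -2.63, -2.84 and -2.68 in WT and -2.45, -2.50 and -1.81 in *Rap1* KI/KI brains (0.46, SE 0.24, adjusted p = 1.00). The brain of KI3 had the highest level of the 6 for all 4 tested subunits, with *Rela* at 3.81, *Relb* at 0.30, *Nfkb1* at -2.47 and *Nfkb2* at -1.81. It had none of the highest values of the IKK or inhibitor genes. All 6 macrophage and microglia genes measured were well above background on every brain array. The log2 of their summed level was 6.87 in the brain of KI3, against 5.47 to 5.81 in the other 5 brains. The same brain had the lowest neuron gene sum of the 6 (7.44 against 7.86 to 8.24). Its sums of 3 red cell genes (6.30 against 6.64 to 7.14) and 4 immediate early genes (3.31 against 4.20 to 5.14) were also the lowest. The part of these marker levels in the subunit levels was not tested. Without KI3 the *Nfkb2* difference was 0.24 and that of *Relb* was 0.0043.

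Liver and muscle had 0 of 9 members that did not overlap, against 5.84% and 6.44% of all tested probes. In liver the largest difference was that of *Tnfaip3*, at -0.94, -1.47 and -1.31 in WT and -1.20, -0.14 and -0.45 in *Rap1* KI/KI livers (0.64, SE 0.31, adjusted p = 1.00). KI1, of 5 months like WT1, lay among the WT livers, and KI2 and KI3, of 2 months, above them. *Nfkbia* in the same livers was 5.58, 5.28 and 5.46 in WT and 5.26, 5.41 and 5.11 in *Rap1* KI/KI mice (-0.18, SE 0.20). In muscle the largest was that of *Nfkbib*, at 3.85, 3.90 and 3.50 in WT and 3.76, 2.63 and 3.30 in *Rap1* KI/KI mice (-0.52, SE 0.32, adjusted p = 0.939), where KI2 was the low value. The adipocyte gene sum was highest in the muscle of KI2 (7.84), against 3.24 to 6.98 in the other muscles, and its part was not tested.

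Of the other pathway genes, 0 were called between genotypes by limma in any tissue. At an unadjusted p under 0.05 there were 0 of 64 tested in liver, 4 of 63 in brain, 3 of 65 in heart and 1 of 62 in muscle. The shares of all tested probes at this threshold were 2.13%, 2.62%, 7.51% and 2.47% in the same order. The 4 in brain were higher in *Rap1* KI/KI mice without overlap, where 7.73% of all tested brain probes did not overlap in either direction. The adaptor gene *Traf1* was at -2.15, -1.88 and -2.42 in WT and -1.04, -1.10 and 0.035 in *Rap1* KI/KI brains (1.44, SE 0.35). *Nfkbie*, which encodes IκBε, was at -1.31, -1.75 and -1.66 in WT and -0.69, -1.04 and -0.75 in *Rap1* KI/KI brains (0.74, SE 0.20). The receptor genes *Tnfrsf13c* (0.71, SE 0.21) and *Ltbr* (0.70, SE 0.24) completed the 4, all with an adjusted p of 1.00. *Bcl3* (0.96), *Cxcl10* (1.33) and *Ccl5* (1.25) were not among these 4 and were picked for being highest by far in the brain of KI3. The other 5 brains had at most -1.38, -0.31 and -2.25. The share of all genes that were highest in that brain was not counted. In heart, *Nfkbiz* (0.91, SE 0.31) and *Ptgs2* (1.24, SE 0.48) were higher and *Otulin* lower (-0.61, SE 0.22) in *Rap1* KI/KI mice, and in muscle *Il1b*, well above background in 2 of 3 WT muscles, was higher (1.50, SE 0.56), with adjusted p of 0.646 in heart and 0.939 in muscle. The log2 of the summed level of 5 neutrophil genes was 6.51 in the muscle of KI1 and 3.65 in that of KI3. In the other 4 muscles it was -0.38 to 1.45, and 3 to 5 of the 5 genes were well above background on each muscle array. Its part in the *Il1b* difference was not tested.

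Whether the genotype difference itself depended on the tissue was tested as an interaction over all 24 arrays. It was called for 0 of the 9 members and for 0% of the 43703 tested probes. At an unadjusted p under 0.05, 1284 of the 43703 tested probes were found, among them *Nfkb2* (adjusted p = 1.00). The other 8 members had unadjusted limma p values of 0.202 or more.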

How the data were processed

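Cy3-labelled RNA was hybridised to one-colour Agilent mouse arrays, and the intensity of each spot was extracted by the authors with Feature Extraction 12.0.3.1. The deposited intensity used here is the processed signal, already background-corrected. Its log2 was averaged per probe, without control spots and outlier spots, and the 75th percentile of the array was subtracted. The authors' deposited score table, z-scores per array, served as an alternative. Probes entered a fit if 3 or more of its arrays had them well above background. Tests were two-sided limma 3.58.1 fits (R 4.3.3) with Benjamini-Hochberg adjustment over all tested probes at 0.05: genotypes within a tissue (6 arrays), tissues within a genotype (12 arrays), and the interaction (24 arrays). They were tested on simulated data. A gene is represented by its brightest probe over 24 arrays, and 28331 of 55681 probes were named through RefSeq (GRCm38.p6). No saturated spots were found.

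The members and lists were chosen with earlier results of these data known. All members were named, and of the listed genes those with the smallest p values or the largest differences between tissues. In the genotype comparison of brain, *Bcl3*, *Cxcl10* and *Ccl5* were named for their level in KI3. Among the genes most alike in pattern, 1 is not reported here. Replicates are separate mice. The same mice gave all 4 tissues, so numbers pair samples: over 18 pairs of WT arrays the deviations from group means correlated at -0.21 to 0.26 (median 0.03). The number of arrays limits the precision. Alternatives were the normalization, background correction, probe filter, probe choice, slide, mouse and (for genotypes) age as blocks, and leaving out each mouse. Figures were drawn with matplotlib 3.10.9.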

Additional observations from a re-analysis of the deposited data

Results flagged for a closer look

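The genotype difference of *Nfkb2* was 0.46 in brain and -0.72 in heart, and it differed between these tissues by 1.18 (brain minus heart, SE 0.41). Every *Rap1* KI/KI brain lay above and every *Rap1* KI/KI heart below the WT arrays of the same tissue. After adjustment over all tested probes the difference between tissues was not called by limma (adjusted p = 0.916). The heart difference was -0.36 without WT3 and the brain difference 0.24 without KI3.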

How the results depend on the processing

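No member was called between genotypes, or for the interaction, under any alternative. In the tissue comparisons of WT mice, the pair heart and muscle had 1 member called, but 2 after quantile normalization, with the mean of a gene's probes or with the slide as a block, 3 over all 24 arrays, and 0 to 1 with a mouse left out. With the slide as a block, 3 in place of 5 members were called between liver and heart, 3 in place of 6 between liver and muscle and 5 in place of 8 between brain and muscle. In *Rap1* KI/KI mice, leaving out a mouse gave 4 to 7 in place of 8 between brain and muscle, and 0 to 0 in place of 1 between heart and muscle. With the mean of its probes, *Nfkbib* turned from -0.82 to 0.13 (brain minus heart). That mean takes in the NM_010908 probe, at 1.42, and the second NM_001306222 probe, at -0.21. Why the probes differ was not tested. With the mouse as a replicate block, liver and heart kept 5 calls (fixed effect) or 4 (random), losing *Tnfaip3*, and no other call changed. The median over all probes moved from 0.33 to 0.18 (liver minus brain) under quantile normalization and from -0.28 to -0.61 (brain minus muscle) under normexp, and no member called in WT mice changed its sign under either.

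With 3 mice a group, 2 ages and 3 slides, no probe was called between genotypes in any tissue. Differences that were not small also went uncalled, such as 1.44 for the adaptor gene *Traf1* in brain. The lack of calls does not show that the genotype differences were small.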

Other observations

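Over the 24 arrays *Rela* and *Nfkbia* ran in parallel (r = 0.94), and over deviations from the means of the 8 tissue and genotype groups r was 0.59, as a description.

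Markers of other cells differed between tissues. The log2 of the summed level of 4 T cell genes was 5.55 to 6.20 in liver and 0.91 to 2.36 in the other tissues. The mean log2 level of these 4 was lower, at -0.25 to 0.14 in liver and -3.52 to -1.47 elsewhere. In brain 2 or 3 of the 4 were well above background. The log2 of the summed level of 4 endothelial genes was 4.52 to 5.54 in heart and 0.89 to 1.50 in brain. Of 4 glucocorticoid-responsive and 4 immediate early genes, 0 were called between genotypes by limma in any tissue, and 0 had an unadjusted p under 0.05.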
